A study of Mus musculus with 4 samples.

Results

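The genes described here are 10 imprinted growth genes of the mouse, *H19*, *Igf2*, *Igf2r*, *Dlk1*, *Meg3*, *Peg3*, *Plagl1*, *Cdkn1c*, *Grb10* and *Mest*. They were measured by RNA sequencing in libraries described as tumor-associated macrophages (TAMs) isolated from tumors of the NB9464 line. They were taken by symbol from a count table of 54532 Ensembl genes, in which all 10 had a row. NB9464 is a neuroblastoma line of the mouse with amplified *MYCN*, and its cells were injected subcutaneously into mice of the Syk MC-WT and the Syk MC-KO strain, both on the C57BL/6 background, at 4 to 6 weeks of age, with tumors collected on day 40 and no further treatment. Syk MC-KO mice came from crosses of floxed *Syk* mice with mice carrying Cre recombinase under lysozyme M control, a promoter active in macrophages and granulocytes. Which of the alleles the Syk MC-WT controls carried is not given in the sources used here. CD11b and F4/80 magnetic beads were used to collect the cells, and polyA RNA was sequenced from 2 libraries of each genotype. The study's methods state sequencing in triplicate, whereas the labels list these 2 libraries per genotype. M7 and M8 carry the Syk MC-WT label, and M9 and M10 carry the Syk MC-KO label. The number of mice behind a library is not given in the sources used here, so p-values measure the spread between these libraries, which may be technical. A line of the labels also names BMDMs (bone marrow derived macrophages) as the source of RNA, and the series title names an adoptive transfer experiment.

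Imprinted genes are read from the maternal or the paternal copy only, a choice set by DNA methylation laid down in the germ line. Many of them control fetal growth: *Igf2* is a growth factor, *Igf2r* removes it from the cell surface, and *Cdkn1c* and *Plagl1* restrain the cell cycle. They are mostly turned down after birth and kept in some stromal, muscle, endocrine and tumor cells. In inbred mice the reads carry no differences between parental copies, so the counts give the level of each gene and not the copy it came from.

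Totals ran from 20755886 to 23518045 counts, and mitochondrial genes took 2.20% and 2.34% of counts in M7 and M8 against 6.00% and 15.9% in M9 and M10. *Syk*, the deleted gene, was expressed at 27.9 and 23.1 CPM (counts scaled by library size and TMM factor) in M7 and M8 and at 196 and 160.3 CPM in M9 and M10, which goes against the labels, so each direction below is that of the libraries as labelled. Its log2 fold change was 2.80 (edgeR adjusted p = 0.000674), and 0.07 without a call when libraries were scaled to macrophage markers (adjusted p = 0.902). Scaled to pan-leukocyte genes it was -0.83 and called lower (adjusted p = 0.0303). Macrophage markers were present in all 4 libraries and summed to 1293 and 916 CPM in M7 and M8 and to 10362 and 6218 CPM in M9 and M10, with 10 of 10 called higher there. Fibroblast markers summed to 12613 and 14516 CPM in M7 and M8 and to 4035 and 4953 CPM in M9 and M10, with 5 of 8 called lower. Of the pericyte markers 5 of 6 and of the endothelial markers 4 of 8 were also called lower, as were 2 of the 3 tested skeletal muscle markers of 6. Of these 2, *Ckm*, with 5 and 9 counts in M9 and M10, passed the expression filter only through M7 and M8. Of 7 neuroblastoma markers 3 were tested and *Gata3*, at 0.182 and 0.285 CPM in M7 and M8 and 1.16 and 2.18 CPM in M9 and M10, was called higher (log2 fold change 2.82, edgeR adjusted p = 0.0247). With 5 and 7 counts in M7 and M8, *Gata3* passed the expression filter only through M9 and M10. *Hand2* lay between 178 and 301 CPM in all 4 libraries, and *Dbh* had 0 counts in every library. The part of these cell mixtures in the results below was not tested. In such bulk samples fewer cells of a type and less RNA per cell cannot be told apart.

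*H19* had the most counts of the 10 genes in every library, and *Igf2r* came next. Of the 10 genes, 8 passed the expression filter, and 4 of the 10 (*Igf2r*, *Grb10*, *Plagl1* and *Meg3*) were lower in M9 and M10 than in M7 and M8 at an adjusted p under 0.05 in edgeR's quasi-likelihood test. *Meg3* entered the test only through M7 and M8, and 3 genes were called lower with at least 10 counts in every library and 3 in the DESeq2 Wald test. By edgeR's test 0 were called higher, also at an unadjusted p under 0.05 and in the DESeq2 Wald test. Over all 16451 genes tested, 16.7% were called lower and 22.7% were called higher. The 8 tested genes had a median log2 fold change of -0.75, and all tested genes had a median of 0.02. *H19*, *Igf2*, *Mest* and *Cdkn1c* did not pass the threshold. *Dlk1* and *Peg3* were too low to be tested. In 4 of the 8 tested genes (those called lower) both KO-labelled libraries lay below both WT-labelled ones, which held for 37.2% of all tested genes. The same order held for *Dlk1*, which was not tested. The opposite order held for 0 of the 10 genes and for 38.0% of all tested genes. These calls rested on few libraries. Without M8, edgeR called 0 of the 10 genes, and 4 had an unadjusted p under 0.05. Among the 10 genes, as over all genes, fewer were called lower without M7 or M8 and more without M9 or M10. Without M10, *Cdkn1c* was also called higher. The libraries of the genotypes differed unequally among themselves (chi-square per degree of freedom 55.8 for M7 and M8 and 185 for M9 and M10). That measure pools raw counts, mitochondrial genes included, and is not the per-gene spread that edgeR models. Fits without a library set 1 library against 2 and assume that the lone library varies like the other genotype. Calls lost or gained on leaving out a library therefore also depend on which genotype supplies the spread, and over all genes 807 were called lower without M8 and 4745 without M10. An exact permutation test of 2 libraries against 2 has 0.333 as its smallest two-sided p, and the calls draw on a spread that edgeR models over many genes.

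**Figure D1:**
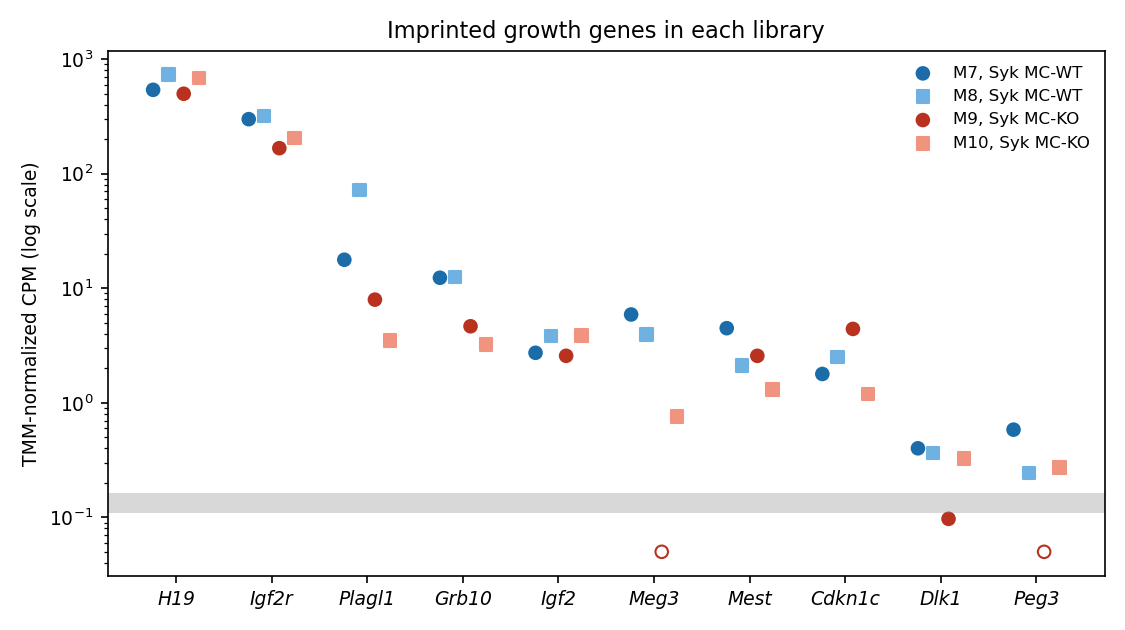
TMM-normalized CPM of the 10 imprinted growth genes (log axis) in each of the 4 libraries, blue for Syk MC-WT and red for Syk MC-KO, with 1 point per library. Open circles at the lower edge stand for 0 counts, and the grey band is the level of 3 counts (0.109 to 0.163 CPM, taken as the smallest detectable signal). *H19* spans 499 to 733 CPM in libraries of both genotypes, whereas the red points of *Igf2r*, *Plagl1*, *Grb10* and *Meg3* all lie below the blue ones.

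Levels of different genes were compared as CPM per kb of exon. In the WT-labelled libraries the order began with *H19* at 259 ± 55.5 CPM per kb (SD, n = 2), *Igf2r* at 33.3 ± 1.56 CPM per kb (SD, n = 2) and *Plagl1* at 5.74 ± 4.91 CPM per kb (SD, n = 2). *Grb10* followed at 1.37 ± 0.0167 CPM per kb (SD, n = 2). *Cdkn1c* (1.06 CPM per kb), *Mest* (0.836 CPM per kb) and *Igf2* (0.572 CPM per kb) came next with neighbouring values that overlapped between libraries. *Meg3*, *Dlk1* and *Peg3* closed the order at 0.272, 0.0677 and 0.0310 CPM per kb. The place of *Meg3* depends on its summed length of all annotated exons, 18089 bases. In CPM its WT-labelled mean (4.92) lay above those of *Mest* (3.30), *Igf2* (3.28) and *Cdkn1c* (2.15). In the KO-labelled libraries, *H19* (240.3 CPM per kb) and *Igf2r* (17.9 and 22.1 CPM per kb) again led, and *Cdkn1c*, *Plagl1*, *Igf2*, *Mest* and *Grb10* lay between 0.331 and 2.16 CPM per kb in single libraries without a clear order. *H19* alone made up 61.0% and 63.7% of the counts of the 10 genes in M7 and M8 and 72.5% and 75.7% in M9 and M10.

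*H19* (ENSMUSG00000000031, GRCm38 chromosome 7, 142575529 to 142578143, minus strand) is a long noncoding RNA read from the maternal copy. *Igf2* (ENSMUSG00000048583, chromosome 7, 142650766 to 142666816, minus strand) encodes insulin-like growth factor 2 and is read from the paternal copy of the same domain. Both genes also hold a miRNA, shown here because the host RNA is what the counts measure. The mature sequences are RefSeq's on GRCm38.p6, with the seed (bases 2 to 8) in capitals. miR-675 lies in an exon of *H19* and miR-483 in an intron of *Igf2*, and the 4 seeds differ from each other.
mmu-miR-675-5p: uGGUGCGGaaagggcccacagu
mmu-miR-675-3p: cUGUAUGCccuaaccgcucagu
mmu-miR-483-5p: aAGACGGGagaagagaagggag
mmu-miR-483-3p: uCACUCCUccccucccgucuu
Mature miRNAs are not captured by polyA libraries, and no level of them is given.

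*H19* was counted 14821 and 18031 times in M7 and M8 and 10286 and 12553 times in M9 and M10. Scaled, M7 and M8 had 539.8 and 733 CPM and M9 and M10 had 499 and 683 CPM, so that the libraries of the genotypes were interleaved. The log2 fold change was -0.11 (SE 0.252, 95% interval -0.71 to 0.50, edgeR adjusted p = 0.764). *Igf2* was far lower, with 75, 94, 53 and 71 counts, or 2.73, 3.82, 2.57 and 3.86 CPM in M7, M8, M9 and M10. Its log2 fold change was -0.03 (SE 0.444, 95% interval -1.10 to 1.04, edgeR adjusted p = 0.968). For both genes M8 was above M7 and M10 above M9, and the difference between libraries of a genotype was larger than that between genotypes. Genes that collect ribosomal RNA reads also took more of the counts in M8 and M10 (1.60% and 1.43%) than in M7 and M9 (0.480% and 0.397%), and their part in this was not tested.

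The ratio of *Igf2* to *H19* counts does not depend on how libraries are scaled to each other. For each count of *Igf2* there were 198 and 192 counts of *H19* in M7 and M8 and 194 and 177 in M9 and M10. The highest ratio was 1.12 times the lowest. As a share of the counts of both genes, *Igf2* took 0.503% in M7 (exact binomial 95% interval 0.396% to 0.631%), 0.519% in M8 (0.419% to 0.634%), 0.513% in M9 (0.384% to 0.670%) and 0.562% in M10 (0.440% to 0.709%). The intervals, which cover counting error only, all overlapped, and no difference in the ratio was detectable at this depth. In the other pairs of genes that could be compared in all 4 libraries the highest ratio was 2.06 times (*Igf2* over *Igf2r*), 2.96 times (*Mest* over *Copg2*), 4.11 times (*Grb10* over *Ddc*) and 20.9 times (*Cdkn1c* over *Kcnq1ot1*) the lowest. An annotated gene, *Gm49394*, shares 3596 exon bases with *Igf2*, and it had 0, 0, 2 and 0 counts in M7 to M10. *Ins2*, the neighbouring imprinted insulin gene, had 2 counts in M7 and 0 in the other libraries.

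**Figure D2:**
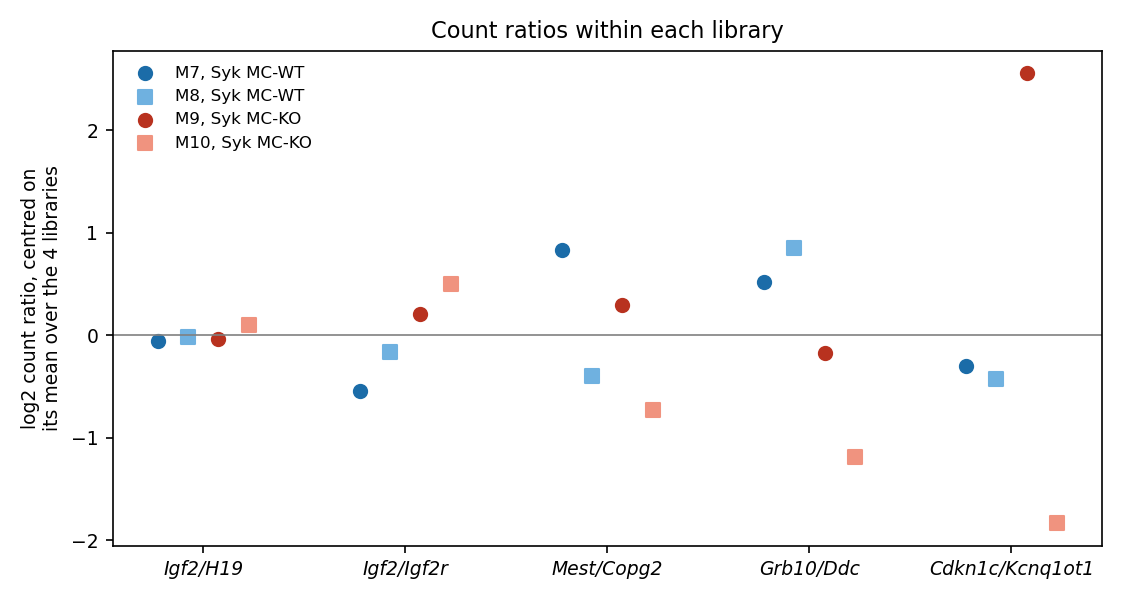
Ratio of the counts of each gene pair within a library, as log2 and centred on the mean over the 4 libraries, with 1 point per library. The *Igf2* over *H19* ratio stays close to 0 in all 4 libraries (highest over lowest 1.12), whereas *Cdkn1c* over *Kcnq1ot1* spreads 20.9 times, with M9 highest and M10 lowest.

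*Igf2r* (ENSMUSG00000023830, chromosome 17, 12682406 to 12769664, minus strand) encodes the cation-independent mannose 6-phosphate receptor, which carries lysosomal enzymes and takes up and degrades IGF2. It is read from the maternal copy. *Igf2r* was 299 and 319.9 CPM in M7 and M8 and 167 and 205 CPM in M9 and M10, with both genotypes well apart. The WT-labelled mean of 309.7 ± 14.5 CPM (SD, n = 2) compared with a KO-labelled mean of 186 ± 27.0 CPM (SD, n = 2). The log2 fold change was -0.73 (SE 0.181, edgeR adjusted p = 0.0212), and 0.43 without a call when scaled to the fibroblast markers (adjusted p = 0.239). The call was lost without M7 (adjusted p = 0.104) and without M8 (adjusted p = 0.171). *Airn* (chromosome 17, 12741311 to 12860136, plus strand), the paternal noncoding RNA that runs across the start of *Igf2r* and silences that copy, was 15.6 and 18.7 CPM in M7 and M8 and 3.69 and 4.03 CPM in M9 and M10. Its log2 fold change was -2.15 (SE 0.261, edgeR adjusted p = 0.00223), and whether it differed from that of *Igf2r* was not tested. The genes share no exon base. How strand was treated in counting is not given in the sources used here. *Igf2* per *Igf2r* count was higher in both KO-labelled libraries (0.0154 and 0.0188) than in M7 and M8 (0.00912 and 0.0119).

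The *Dlk1* and *Meg3* domain lies on chromosome 12. *Dlk1* (ENSMUSG00000040856, 109452823 to 109463336) encodes a transmembrane protein related to Notch ligands that holds back adipocyte maturation, and it is read from the paternal copy. It had 11 and 9 counts in M7 and M8 and 2 and 6 in M9 and M10, near the limit of detection, and was not tested. With every counted gene kept, its log2 fold change was -0.87 (SE 1.32, edgeR adjusted p = 0.664). *Meg3* (ENSMUSG00000021268, 109541001 to 109571726), a maternal long noncoding RNA, had 162 and 97 counts in M7 and M8, 0 in M9 and 14 in M10. That is 5.90 and 3.94 CPM against 0 and 0.762 CPM, with no overlap between genotypes. Its log2 fold change was -3.71 (SE 1.14, edgeR adjusted p = 0.0429), and it passed the expression filter only through M7 and M8. With M9 at 0 counts and below the smallest signal taken as detectable, the size of the fold rests on M10, and without M9 it was -2.77, with M10 as the lone KO-labelled library and the spread taken from M7 and M8. The call was lost without M7 (adjusted p = 0.137), without M8 (adjusted p = 0.0814) and in the DESeq2 Wald test (adjusted p = 0.188).

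*Meg3* exons hold miR-770, and the RNA runs in the same direction as *Rian* and *Mirg*, maternal noncoding RNAs further along the domain that carry more small RNAs. *Rian* was 18.9 and 30.0 CPM in M7 and M8 and 3.06 and 6.97 CPM in M9 and M10, a log2 fold change of -2.29 (SE 0.438, edgeR adjusted p = 0.00946) that was -2.99 without M10. *Mirg* had 24 and 37 counts in M7 and M8 and 9 and 12 counts in M9 and M10. The log2 fold change of -1.12 was not called (edgeR adjusted p = 0.226). *Rtl1*, a paternal gene derived from a retrotransposon, had a log2 fold change of -0.76 (adjusted p = 0.212), with M10 at 16.3 CPM above M7 at 15.6 CPM. *Dio3*, a paternal gene for the deiodinase that inactivates thyroid hormone, had 13, 4, 2 and 0 counts and was not tested. *Rian* was counted more often than *Meg3* in every library, with 520 and 737 counts in M7 and M8 and 63 and 128 in M9 and M10. The miR-770 arms of *Meg3* read as follows, again with the seed in capitals.
mmu-miR-770-5p: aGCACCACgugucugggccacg
mmu-miR-770-3p: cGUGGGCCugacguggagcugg

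*Plagl1* (ENSMUSG00000019817, chromosome 10, 13060504 to 13131694, plus strand) encodes a zinc finger factor, also called ZAC1, that stops the cell cycle and is known to act on other imprinted genes. It varied more between libraries of a genotype than any other tested gene of the 10 in the WT-labelled libraries, at 17.7 CPM in M7 and 72.0 CPM in M8, a difference of 4.06 times. In M9 and M10 it was 7.95 and 3.48 CPM. Both were below M7, the lower of the WT-labelled libraries. Averages were 44.9 ± 38.4 CPM (SD, n = 2) for the WT label and 5.72 ± 3.16 CPM (SD, n = 2) for the KO label. The log2 fold change was -2.96 (SE 0.708, edgeR adjusted p = 0.0194). Without M8 the log2 fold change was -1.64 and the call was lost, whereas it was -3.65 without M7 and -3.77 without M9. Scaled to the fibroblast markers it was -1.68 without a call (edgeR adjusted p = 0.0510). *Peg3* (ENSMUSG00000002265, chromosome 7, 6703892 to 6730431), a paternal zinc finger gene, had 16 and 6 counts in M7 and M8 and 0 and 5 in M9 and M10. It was not tested, and with every counted gene kept its log2 fold change was -1.63 (SE 1.41, edgeR adjusted p = 0.452). *Usp29*, which starts from the same promoter region in the other direction, had 15, 19, 10 and 39 counts in M7, M8, M9 and M10 and a log2 fold change of 0.97 (adjusted p = 0.388).

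*Grb10* (ENSMUSG00000020176, chromosome 11, 11930508 to 12038683, minus strand) encodes an adaptor that binds the insulin and IGF1 receptors and dampens their signal. It had the closest libraries within Syk MC-WT, at 12.3 CPM in M7 and 12.6 CPM in M8, against 4.66 and 3.21 CPM in M9 and M10. Averages were 12.5 ± 0.152 CPM (SD, n = 2) and 3.93 ± 1.02 CPM (SD, n = 2). The log2 fold change was -1.66 (SE 0.306, edgeR adjusted p = 0.00834), the smallest adjusted p of the 10 genes. The call was lost without M8, where the log2 fold change was -1.66, and when scaled to the fibroblast markers (-0.45, edgeR adjusted p = 0.369). *Ddc*, the neighbouring gene for aromatic amino acid decarboxylase, had 206, 149, 94 and 117 counts in M7, M8, M9 and M10. This gave a log2 fold change of -0.31, which was not called (edgeR adjusted p = 0.495). Within libraries, *Grb10* had 1.65 and 2.07 counts for each count of *Ddc* in M7 and M8 and 1.02 and 0.504 in M9 and M10, so that this ratio was also lower in both KO-labelled libraries.

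*Cdkn1c* (ENSMUSG00000037664, chromosome 7, 143458339 to 143461050, minus strand) encodes the CDK inhibitor p57 and is read from the maternal copy. It was 1.78 and 2.52 CPM in M7 and M8, 4.41 CPM in M9 and 1.20 CPM in M10, so the highest and the lowest value were both in KO-labelled libraries. The log2 fold change was 0.39 (SE 0.678, 95% interval -1.25 to 2.02, edgeR adjusted p = 0.680). It was 1.05 without M10 and -0.93 without M9, each with a lone KO-labelled library and the spread taken from M7 and M8 (adjusted p = 0.0308 and 0.147). *Kcnq1ot1*, the paternal noncoding RNA that silences *Cdkn1c* on its copy, moved the other way between M9 and M10, at 17.0 and 96.6 CPM, with 49.6 and 76.9 CPM in M7 and M8. *Mest* (ENSMUSG00000051855, chromosome 6, 30723547 to 30748465, plus strand) is a paternal gene for a protein with an alpha/beta hydrolase fold. It was 4.48 and 2.11 CPM in M7 and M8 and 2.57 and 1.31 CPM in M9 and M10, with overlapping genotypes. Its log2 fold change was -0.76 (SE 0.588, 95% interval -2.18 to 0.65, edgeR adjusted p = 0.338), and leaving out each library gave -1.42 without M9 (adjusted p = 0.0282), -1.21 without M8, -0.35 without M10 and -0.12 without M7 (adjusted p = 0.950). *Mest* shares 912 exon bases with *Copg2* on the opposite strand, which makes its low count uncertain, since *Copg2* was 71.9, 79.4, 60.0 and 61.9 CPM in M7, M8, M9 and M10.

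The RefSeq table on GRCm38.p6 held 15 promoters (250 bases before to 50 after a start site) for 8 of the 10 genes, and those of the 4 genes called lower are shown at the first start site listed. They were searched on both strands for TGCCGC, the hexamer that the imprint-keeping factor ZFP57 binds when it is methylated. Matches to TGCCGC, or to its reverse complement GCGGCA, are in capitals.
Igf2r promoter, chr17:12769657-12769956, minus strand: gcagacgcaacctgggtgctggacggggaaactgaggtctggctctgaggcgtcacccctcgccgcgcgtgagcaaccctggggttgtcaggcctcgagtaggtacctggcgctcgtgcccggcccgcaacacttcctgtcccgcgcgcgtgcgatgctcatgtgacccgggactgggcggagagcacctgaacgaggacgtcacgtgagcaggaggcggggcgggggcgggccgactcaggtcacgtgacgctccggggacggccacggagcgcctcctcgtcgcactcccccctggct
Grb10 promoter, chr11:12037371-12037670, minus strand: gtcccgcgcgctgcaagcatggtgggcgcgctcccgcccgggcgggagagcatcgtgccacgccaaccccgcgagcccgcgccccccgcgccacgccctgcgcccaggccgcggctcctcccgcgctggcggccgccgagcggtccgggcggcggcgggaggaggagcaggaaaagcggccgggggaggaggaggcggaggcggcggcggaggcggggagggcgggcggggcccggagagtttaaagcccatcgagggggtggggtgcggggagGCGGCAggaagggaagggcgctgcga
Plagl1 promoter, chr10:13090582-13090881, plus strand: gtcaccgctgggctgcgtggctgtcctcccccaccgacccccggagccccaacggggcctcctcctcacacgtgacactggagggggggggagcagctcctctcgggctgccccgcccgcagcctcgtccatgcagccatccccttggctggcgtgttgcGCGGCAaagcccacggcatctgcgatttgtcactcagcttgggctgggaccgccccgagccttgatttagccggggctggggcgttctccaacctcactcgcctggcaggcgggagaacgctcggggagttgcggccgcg
Meg3 promoter, chr12:109540746-109541045, plus strand: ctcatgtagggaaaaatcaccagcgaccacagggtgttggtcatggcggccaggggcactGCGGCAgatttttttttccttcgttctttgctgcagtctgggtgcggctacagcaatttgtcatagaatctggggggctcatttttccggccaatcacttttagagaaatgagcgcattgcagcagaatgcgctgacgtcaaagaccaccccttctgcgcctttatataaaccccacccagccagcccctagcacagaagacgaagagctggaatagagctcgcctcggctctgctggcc
The *Grb10*, *Plagl1* and *Meg3* windows each held 1 match, and the *Igf2r* window held 0. A match was in 6 of the 15 windows, of which the *Mest* pair overlap, and in 11.6% of all 32851 promoters of that length. The windows shown of *Igf2r*, *Grb10*, *Plagl1* and *Meg3* held 34, 45, 26 and 13 CG dinucleotides, against a median of 7 over all promoters. The second windows of *Grb10* and *Meg3*, not shown, held 9 and 1 CG dinucleotides and no match. A match is a description of the letters only.

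Since the mix of markers differed between the genotypes, the counts of the 10 genes were also set against marker counts within each library. Most counts of the 8 fibroblast markers came from the collagen genes *Col1a1* and *Col3a1* (means of 6145 and 6631 CPM in the WT-labelled libraries), and *Dcn* and *Fap* stood at log2 fold changes of -0.28 and -0.07 without a call. For each 1000 counts of these markers there were 42.8 and 50.5 counts of *H19* in M7 and M8 and 124 and 138 in M9 and M10. *Igf2r* had 23.7 and 22.0 counts on the same measure in M7 and M8 and 41.4 in both M9 and M10. *Grb10* had 0.979 and 0.865 counts in M7 and M8 and 1.15 and 0.648 in M9 and M10, which overlapped. *Plagl1* had 1.41 and 4.96 counts in M7 and M8 and 1.97 and 0.703 in M9 and M10, which overlapped too. *Meg3* remained lower, with 0.468 and 0.272 counts against 0 and 0.154. The macrophage markers themselves were several times higher in the KO-labelled libraries, and for each 1000 of their counts *H19* had 418 and 801 counts in M7 and M8 and 48.1 and 109.9 in M9 and M10.

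With libraries scaled to the fibroblast markers in the edgeR fit, the log2 fold change of *H19* was 1.06, called higher (adjusted p = 0.0259), and *Igf2r* stood at 0.43 without a call (adjusted p = 0.239). Under that scaling 9476 of all 16451 tested genes were called higher and their median was 1.19, so that *H19* lay close to the median. *Grb10* was then -0.45 (adjusted p = 0.369) and *Plagl1* -1.68 (adjusted p = 0.0510). *Meg3*, with its limit of having passed the filter only through M7 and M8, was -2.67 (adjusted p = 0.0451). Scaled to the macrophage markers, the 8 tested genes were all lower, with log2 fold changes from -6.19 (*Meg3*) to -2.57 (*Cdkn1c*), and scaled to the pan-leukocyte genes they ran from -7.16 to -3.40. Of all tested genes 14200 and 15270 were called lower under these scalings, with medians of -2.70 and -3.60, and *H19* (-2.82 and -3.72) and *Igf2* (-2.73 and -3.63) lay close to those medians. With library size only, *Cdkn1c* changed sign to -0.10 and the median of all tested genes was -0.52. Each scaling moved the 8 tested genes in the same direction by similar, though not equal, amounts. The sign of a gene under it therefore follows mostly from its TMM value and that shift.

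**Figure D3:**
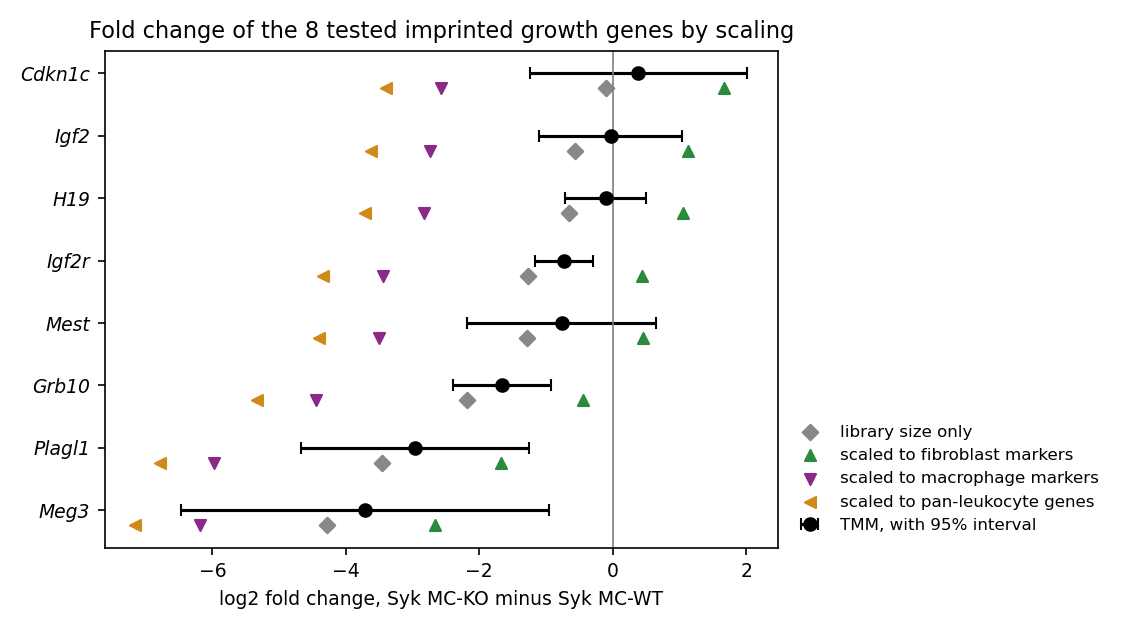
Log2 fold change (Syk MC-KO minus Syk MC-WT) of the 8 tested genes, with the TMM value and its 95% interval in black and the values under 4 other scalings as coloured symbols. The intervals of *Igf2r*, *Grb10*, *Plagl1* and *Meg3* lie below 0, and the fibroblast scaling moves *H19* to 1.06 while the pan-leukocyte scaling moves it to -3.72.

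A list of 44 other imprinted genes, from the domains of the 10 genes and elsewhere, had 31 that passed the expression filter. Of these, 6 were called lower and 6 higher in the KO-labelled libraries, 19 did not pass the threshold, and the median log2 fold change was -0.16. The shares, 6 of 31 each way, lay near the 16.7% lower and 22.7% higher of all tested genes. By p-value the lower ones were led by *Airn*, *Rian* and *Nnat*, the last a paternal gene for a small membrane protein of neuroendocrine cells with 57 and 59 counts in M7 and M8 and 8 and 7 in M9 and M10 (log2 fold change -2.52, SE 0.588, edgeR adjusted p = 0.0179). *Nnat* passed the expression filter only through M7 and M8, and its call was lost without M7 (adjusted p = 0.180), without M8 (0.258) and when scaled to the fibroblast markers (-1.35, adjusted p = 0.101). By p-value the higher ones were led by *Commd1*, an endosomal sorting gene, at 14.2 and 12.8 CPM against 50.6 and 41.0 CPM (log2 fold change 1.77, SE 0.189, edgeR adjusted p = 0.00161). *Cd81*, a tetraspanin gene, rose by a log2 fold change of 0.95 (SE 0.169, edgeR adjusted p = 0.00754), and *Peg10*, a gene derived from a retrotransposon, by 0.80 (SE 0.164, edgeR adjusted p = 0.0118). *Peg10* stood at 168 and 159 CPM in M7 and M8 and at 269 and 299 CPM in M9 and M10. Scaled to the macrophage markers, *Cd81* and *Peg10* were instead called lower, and *Commd1* stood at -0.98 without a call (edgeR adjusted p = 0.0756). Scaled to the pan-leukocyte genes, *Commd1* was called lower (-1.87, adjusted p = 5.48e-05), as were 15270 of all tested genes. The *Cd81* and *Peg10* calls were also lost with library size only (0.41 and 0.26, adjusted p = 0.141 and 0.275), without M7 (0.0588 and 0.0975) and without M8 (0.104 and 0.157). In 15 of the 31 tested genes M8 was above M7 and M10 above M9, as for *H19*, *Igf2* and *Igf2r*, and this held for 27.0% of all tested genes, for 9 of 18 tested genes of the IGF pathway and for 1 of 10 genes that keep or set imprints. That pattern was looked for after the values were seen.

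Of 20 genes of the IGF pathway, 18 were tested, 7 were called lower, 3 were called higher and 8 did not pass the threshold, beside 16.7% lower and 22.7% higher over all tested genes. *Irs1*, an adaptor of the insulin and IGF1 receptors, was 113 and 124 CPM in M7 and M8 and 28.6 and 34.3 CPM in M9 and M10, a log2 fold change of -1.92 (SE 0.170, edgeR adjusted p = 0.000996). *Pappa*, a protease that frees IGFs from their binding proteins, fell by 2.83 on the log2 scale (edgeR adjusted p = 0.00248). *Stc1*, which encodes an inhibitor of that protease, fell by 1.77 on the log2 scale (edgeR adjusted p = 0.00433), and stood at -0.60 without a call when scaled to the fibroblast markers (adjusted p = 0.141). *Igf1*, the other IGF ligand and a known macrophage product, was 67.2 and 84.5 CPM in M7 and M8 and 404 and 189 CPM in M9 and M10, and it rose by a log2 fold change of 1.97 (SE 0.365, edgeR adjusted p = 0.00849). Without M9 it was 1.23, and without M10 2.43. *Igf2bp2*, for an RNA-binding protein, and *Irs2* rose by 1.62 and 0.80 on the log2 scale (edgeR adjusted p = 0.0115 and 0.0174). Scaled to the macrophage markers, *Irs2* was instead called lower, and *Igf1* and *Igf2bp2* stood at -0.91 and -1.20 without a call (edgeR adjusted p = 0.0997 and 0.0632). With library size only, *Irs2* stood at 0.27 and *Igf2bp2* at 1.10, both without a call (adjusted p = 0.347 and 0.0527). The *Irs2* call was also lost without M7 (0.130) and without M8 (0.119), and the *Igf2bp2* call without M8 (0.0541). *Igf1* exceeded *Igf2* in counts in every library.

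Among 10 genes that keep or set imprints, 2 were called lower, 2 were called higher and 6 did not pass the threshold, near the 16.7% lower and 22.7% higher of all tested genes. *Zfp57*, which encodes the factor named above, was 77.8 and 67.0 CPM in M7 and M8 and 11.9 and 13.5 CPM in M9 and M10, a log2 fold change of -2.51 (SE 0.179, edgeR adjusted p = 0.000705). *Zfp445*, its partner in imprint upkeep, was 133 and 136 CPM against 41.0 and 46.4 CPM, a log2 fold change of -1.62 (SE 0.156, edgeR adjusted p = 0.00124), which became -0.45 without a call when scaled to the fibroblast markers (adjusted p = 0.178). *Dnmt3a*, a DNA methyltransferase, rose by 0.90 (SE 0.227, edgeR adjusted p = 0.0230) and was called lower when scaled to the macrophage markers (-1.88). Its call was lost with library size only (0.38, adjusted p = 0.291), without M7 (0.0721) and without M8 (0.158). *Dppa3*, a germ cell and egg factor, had 1 count in each of M7 and M8, under the 3 counts taken as detectable, and 17 and 14 in M9 and M10. It passed the expression filter only through M9 and M10, and its call (edgeR adjusted p = 0.0141) was lost without M7 (0.269), without M8 (0.281) and when scaled to macrophage markers (0.358).

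**Figure D4:**
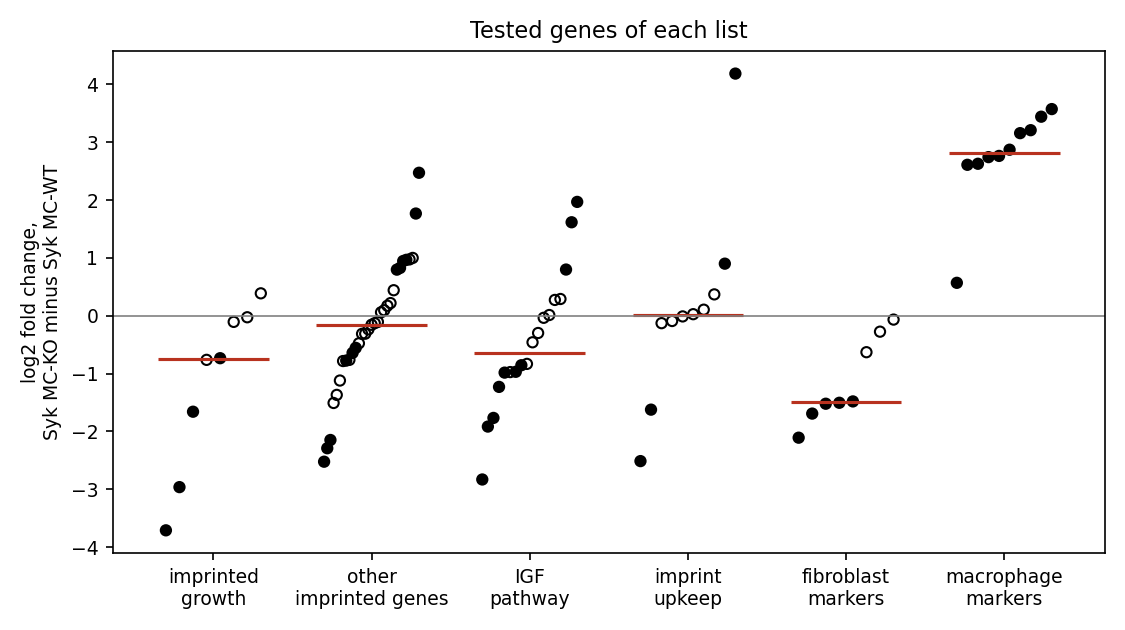
Log2 fold change (Syk MC-KO minus Syk MC-WT, TMM scaling) of every tested gene of 4 gene lists and 2 marker lists, sorted within a list. Filled points have an adjusted p under 0.05, open points do not, and the red line is the list's median, which is -0.75 for the imprinted growth genes, -0.16 for the other imprinted genes, -0.65 for the IGF pathway, -1.49 for the fibroblast markers and 2.82 for the macrophage markers.

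The genes with the library pattern closest to a gene were found by the distance between log2 CPM profiles centred on their means, after adding 0.5 CPM, over 14253 genes of at least 1 CPM and 4 libraries. The genes share these libraries, with their depth and cell mixture, and the distance is a description only. Closest to *H19* were *Gm20735*, *Fastkd1* and *Nsmaf*, at distances of 0.037, 0.067 and 0.075. *Igf2* itself lay at 0.088 from *H19*, the fifth closest of 14260 genes when the genes of the list were counted too. Closest to *Igf2* were *Fastkd1*, *Nxpe4* and *Med12* (0.045, 0.049 and 0.065). Closest to *Meg3* were *Gm37422*, *Scn3a*, a sodium channel gene, and *Fbn1*, the gene of the matrix protein fibrillin 1, at larger distances of 0.307, 0.347 and 0.422. *Fbn1* was 41.2 and 37.1 CPM in M7 and M8 and 2.38 and 7.24 CPM in M9 and M10, so that M9 was the lowest library for it as for *Meg3*. *Dlk1* did not pass the filter and was not compared.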

How the data were processed

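Genotypes came from the labels of 4 polyA libraries, without pairing or batch. The values are raw counts that the authors deposited for each Ensembl gene, made by STAR 2.6.1d on mm10 and Salmon 1.4.0 within bcbio (versions from the submitters' processing notes). Salmon splits ambiguous reads between transcripts, and the rounding step is not given in the sources used here. Symbols, positions and summed exon lengths came from GENCODE M21 on GRCm38, which matched 54495 of 54532 genes. In R 4.3.3, genes passing filterByExpr were scaled by TMM (factors 1.22, 1.19, 0.877 and 0.787 for M7 to M10) and compared by edgeR 4.0.16 (glmQLFit and glmQLFTest) at a Benjamini-Hochberg adjusted p under 0.05, a procedure tested on simulated data. Alternatives were other scalings, filters, DESeq2 1.42.0 (the tool of the study) and each library left out. Libraries of a genotype differed by more than sampling noise (chi-square per degree of freedom 55.8 and 185). Named were the 10 genes, up to 3 called genes per direction of each other list, ratio partners and nearest profiles; *Ins2*, *Mirg*, *Rtl1* and *Dio3* were added as neighbours after their values were seen. Members and lists were chosen with earlier results of these data known.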

Additional observations from a re-analysis of the deposited data

How the results depend on the processing

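No paired analysis was possible because the library numbers M7 to M10 are not shared between genotypes. Of the 10 genes, 4 were called lower and 0 higher. Leaving out each library gave 0 to 5 lower and 0 to 1 higher, 807 to 4745 lower and 1478 to 5010 higher over all genes, 2 to 12 lower and 1 to 8 higher among the other imprinted genes, and 4 to 8 lower and 1 to 3 higher in the IGF pathway. With library size only, 5407 genes were called lower and 1678 higher, with 11 and 2 other imprinted genes and 1 IGF gene higher, and *Cdkn1c* was -0.10. Scaled to fibroblast markers, 433 genes were lower and 9476 higher, with 1 and 1 of the 10 genes, 2 and 15 other imprinted genes and 2 IGF genes lower; log2 fold changes that changed sign were *H19* 1.06, *Igf2* 1.13, *Igf2r* 0.43, *Mest* 0.45, *Copg2* 0.87, *Ddc* 0.83 and *Kcnq1ot1* 0.90. Scaled to macrophage markers, 14200 genes were lower and 136 higher, with 8 of the 10 genes, 27 other imprinted genes and 16 IGF genes lower and 0 of these higher; sign changes were *Cd81* -1.79, *Cdkn1c* -2.57, *Commd1* -0.98, *Dnmt3a* -1.88, *Igf1* -0.91, *Igf2bp2* -1.20, *Irs2* -1.98, *Peg10* -1.91 and *Usp29* -1.60. Scaled to pan-leukocyte genes, 15270 were lower and 55 higher, with 8, 30 and 18 of the lists lower and 0 higher; sign changes were *Cd81* -2.68, *Cdkn1c* -3.40, *Commd1* -1.87, *Dnmt3a* -2.76, *Igf1* -1.77, *Igf2bp2* -2.07, *Irs2* -2.86, *Peg10* -2.81, *Usp29* -2.52 and *Syk* -0.83. The causes were not tested.

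Leaving out each library, the log2 fold change ran from -0.34 to 0.12 for *H19*, -0.33 to 0.22 for *Igf2* and -1.88 to 0.52 for *Kcnq1ot1*, each above 0 only without M8 (0.12, 0.22 and 0.18) or M9 (0.01, 0.15 and 0.52). It ran from -0.93 (without M9) to 1.05 for *Cdkn1c* and from -0.42 (without M10) to 1.60 for *Usp29*. Over all alternatives the adjusted p ran from 4.55e-11 to 0.239 for *Igf2r*, 5.78e-12 to 0.369 for *Grb10*, 1.6e-24 to 0.0637 for *Plagl1* and 1.57e-10 to 0.188 for *Meg3*, from 2.98e-09 to 0.966 for *H19*, 3.84e-07 to 0.95 for *Mest* and 7.79e-05 to 0.934 for *Cdkn1c*. *Meg3*, *Nnat* and *Dppa3* could not be tested with at least 10 counts in every library. With M9 at 0, the log2 fold change of *Meg3* without M10 (-9.90) depends on the prior count. DESeq2 size factors, the other filters and leaving out mitochondrial and ribosomal-like genes turned no direction among the named genes. Depth limits *Dlk1* and *Peg3*, at 16 counts or fewer in each library.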
